A study of Oryza sativa with 8 samples.

Results

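The genes described here lie in 2 stretches of rice locus IDs, one on chromosome 4 (LOC_Os04g01240 to LOC_Os04g03920) and one on chromosome 10 (LOC_Os10g02210 to LOC_Os10g05010), in which genes differed between roots of 2 indica lines, one tolerant of cold and one sensitive to it. A member is an ID inside either stretch, ends included, whose mean over all libraries was at least 1 normalised read count. Of 349 IDs in the stretches, 193 are members, 94 of 160 on chromosome 4 and 99 of 189 on chromosome 10, out of 42189 IDs in all. The members were chosen by the mean and by the deposited differences between the lines at 28 °C, which set the stretches. The values at 28 °C are thus given as a description, with no test. The comparison at 10 °C is of the same 2 lines, and earlier results on its libraries were known. The counts of members called at 10 °C are thus a description too.

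Root RNA of 4 groups was sequenced, with 2 libraries a group and 4 plants a library. The groups were tolerant roots at 10 °C and sensitive roots at 10 °C, and tolerant roots at 28 °C and sensitive roots at 28 °C. Both are numbered IRGA lines, and the labels give them names with a common stem. Plants grown in nutrient solution at 28 °C were moved at the three-leaf stage, at about 30 days, to a chamber at 10 °C or kept at 28 °C. The labels give the length of the cold as 24 h in one place and as up to 10 days in another. Each line is 1 genotype, so a difference between them belongs to this pair of lines. The labels call the 2 libraries of a group biological replicates, and beyond that do not say how they were separated. P-values then measure only the spread between these libraries.

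Rice locus IDs of the form LOC_Os are numbered in order along each chromosome of a japonica reference genome, so neighbouring numbers stand for neighbouring loci. As general background, rice lines are known to differ from each other and from that reference in blocks of linked alleles, which include genes held by one line and lacking in another, and read counts rest on reads matching the reference sequence. None of the IDs could be matched to the gene table used here (0 of 349), so no gene name, function, coordinate or sequence is given. Which members have near-identical copies, or overlap a gene on the other strand, was not analysed here, and how reads matching more than 1 locus were counted is not stated.

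The deposited values were the mean over all libraries, the log2 fold change with its standard error, and p-values. They fixed the whole read count of 189 of the 193 members in each of the 8 libraries, and these counts divided by the library's size factor are the normalised read counts printed below. Size factors, a measure of relative depth, lay between 0.679 and 1.25, lowest in the second library of sensitive roots at 10 °C. The 2 libraries of a group are numbered here by size factor, larger first, and not by the replicate number of the labels. A group with 3 reads over its libraries stands at 1.22 to 1.83 normalised counts, below which levels cannot be told from 0. Intervals given with a ratio cover counting error only.

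On chromosome 4, 14 of the 79 members with an adjusted p differed between tolerant and sensitive roots at 10 °C, 3 higher and 11 lower in tolerant roots. A gene is called where its adjusted p in the authors' deposited table is below 0.05, which held for 2.90% of all genes tested at 10 °C (1.31% higher and 1.60% lower in tolerant roots) and for 17.7% of these members. The other 15 members had no adjusted p because their means were low. At 28 °C, the comparison behind the choice of the stretches, 8 of 94 members were called, 2 higher and 6 lower in tolerant roots, where 0.765% of all genes were called (0.392% higher and 0.374% lower). All 8 were among the 14, with the same direction at both temperatures. The median log2 difference of the tested members at 10 °C was -0.10, and the median of its size was 0.82, against 0.35 over all genes tested.

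**Figure D1:**
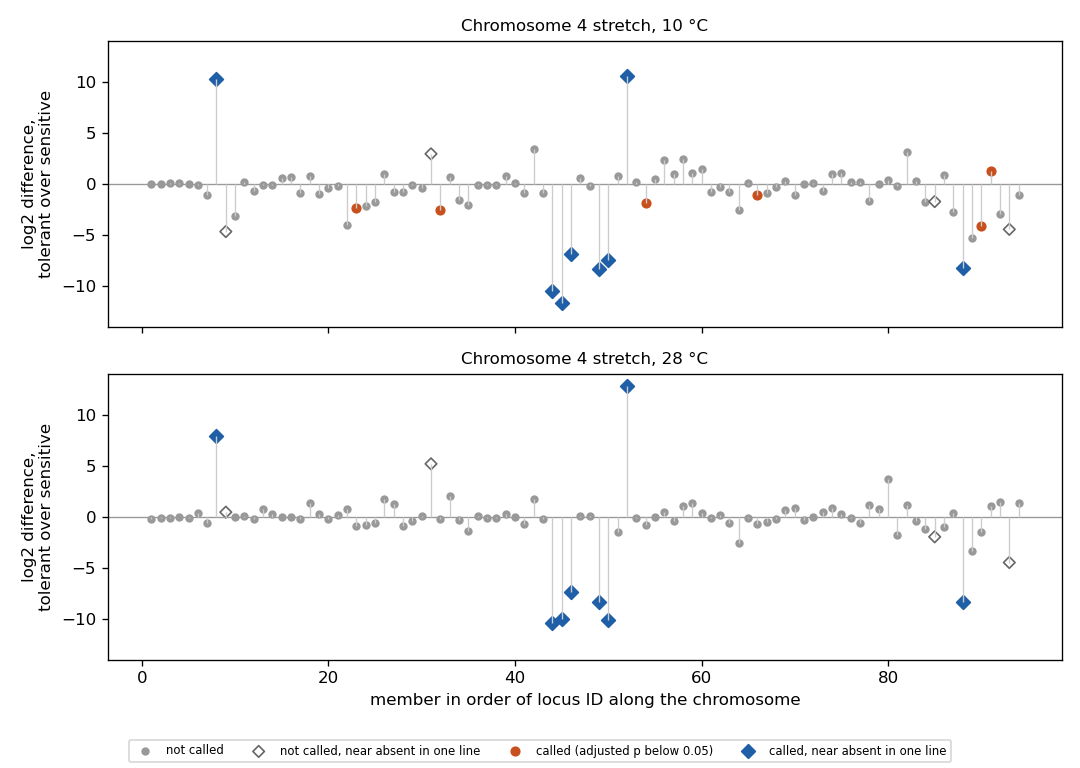
Log2 difference of tolerant over sensitive roots at 10 °C (upper panel) and 28 °C (lower panel) for the 94 chromosome 4 members in order of locus ID. Diamonds mark members with 3 reads or fewer over the 4 libraries of one line and at least 10 over those of the other. Orange circles and filled blue diamonds have an adjusted p below 0.05. Grey circles and open diamonds were not called. Near the middle, 5 filled diamonds below -5 lie close together in both panels, with 2 uncalled members among them.

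The 14 called members were not spread evenly. The first 3, LOC_Os04g01330, LOC_Os04g01650 and LOC_Os04g01890, came after 7 uncalled members and stood apart, with 14 and 8 uncalled members between them. Then 7 called members, LOC_Os04g02070 to LOC_Os04g02510, had 4 uncalled members among them. LOC_Os04g02754 followed, then 21 uncalled members in a row. The last called members were LOC_Os04g03796, LOC_Os04g03850 and LOC_Os04g03860, with 3 uncalled members after them. Uncalled members here include the 15 without an adjusted p at 10 °C, and several of the 21 were among these. Just past its end, in LOC_Os04g03930 to LOC_Os04g06600, 0 of 21 genes were called at 10 °C in the authors' deposited table, with 1 at an unadjusted p below 0.05, and 0 of 32 at 28 °C, with 2. In the remainder of chromosome 4, flank included, 2.20% of tested genes were called at 10 °C and 0.129% at 28 °C.

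The members that differed most had next to no reads in one line. LOC_Os04g02490 had 453 and 262 normalised counts in tolerant roots at 10 °C and 0 in both libraries of sensitive roots. At 28 °C it had 1018 and 1319 in tolerant roots and again 0 and 0 in sensitive roots, so the sensitive line gave 0 reads in all 4 libraries against 3529 reads in the tolerant line. Against a floor of 3 reads over the group, tolerant roots held at least 195-fold more at 10 °C and at least 910-fold more at 28 °C. The adjusted p at 10 °C was 9.12e-10 in the authors' deposited table. Fewer cells of a type that express a gene and less RNA per cell cannot be told apart in these samples, and a count near 0 says only that few reads were assigned to the ID.

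LOC_Os04g01330 showed the same direction. It had 236 and 330 normalised counts in tolerant roots at 10 °C and 0 and 0 in sensitive roots, at least 155-fold higher in tolerant roots (adjusted p = 3.00e-09 in the authors' deposited table). At 28 °C it had 216 and 201 in tolerant roots and 1.61 and 0 in sensitive roots, a ratio of 244 (95% counting interval 67.5 to 2012). The libraries of the lines were far apart at both temperatures.

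Another 6 loci, some of them neighbours, showed the reverse, with reads in sensitive roots and almost none in tolerant roots. LOC_Os04g02070 had 0 and 1.22 normalised counts in tolerant roots at 10 °C and 706 and 831 in sensitive roots, a ratio of 1390 (249 to 54890) on a single read. LOC_Os04g02110 had 0 and 0 in tolerant roots at 10 °C and 651 and 695 in sensitive roots, at least 406-fold lower in tolerant roots. LOC_Os04g02120, the next member, had 0 reads in all 4 tolerant libraries, while sensitive roots had 32.3 and 13.3 at 10 °C and 26.6 and 22.8 at 28 °C. In these 3 consecutive members no tolerant library passed 1.22 normalised counts, and no sensitive library fell below 13.3.

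Further along, LOC_Os04g02280 had 0 and 1.22 normalised counts in tolerant roots at 10 °C and 182 and 163 in sensitive roots. LOC_Os04g02354, the member after it, had 1.01 and 0 in tolerant roots at 10 °C and 117 and 76.6 in sensitive roots. LOC_Os04g03796, near the far end, had 1.01 and 0 in tolerant roots at 10 °C and 167 and 174 in sensitive roots. The 28 °C libraries gave the same picture, with 1 read at most in tolerant roots for LOC_Os04g02070, LOC_Os04g02110, LOC_Os04g02354 and LOC_Os04g03796, 2 for LOC_Os04g02280, and 1316, 1006, 399, 315 and 635 in sensitive roots in that order of naming. Adjusted p-values at 10 °C for these 6 members ranged in the authors' deposited table between 2.29e-12 for LOC_Os04g02110 and 0.00810 for LOC_Os04g02120. The call of LOC_Os04g02120, the lowest of them with a mean of 11.9, was lost at 10 °C when either tolerant library or the first sensitive library was left out, and at 28 °C without either tolerant library.

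**Figure D2:**
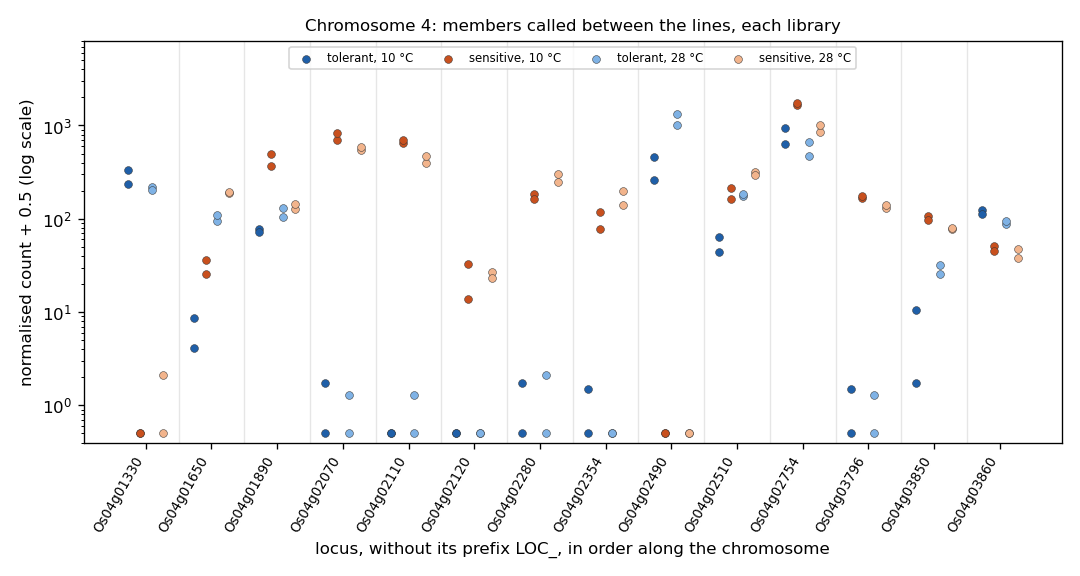
Normalised read count plus 0.5, on a log axis, in each of the 8 libraries for the 14 chromosome 4 members called between the lines. Each point is 1 library. In 8 members one line lies at or near the bottom of the axis at both temperatures, for example LOC_Os04g02490 with 0 in sensitive roots.

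The other 6 called members on chromosome 4 were read in both lines and were called at 10 °C alone. LOC_Os04g01890 had 77.7 and 72.1 normalised counts in tolerant roots at 10 °C and 494 and 364 in sensitive roots, a log2 difference of -2.52 ± 0.33 (SE; adjusted p = 9.74e-12 in the authors' deposited table). At 28 °C the groups overlapped, with 130 and 104 in tolerant roots and 126 and 142 in sensitive roots. LOC_Os04g03850 had 10.1 and 1.22 in tolerant roots at 10 °C and 107 and 95.7 in sensitive roots, and its log2 difference was -4.10 ± 0.66 (SE). At 28 °C it had 31.1 and 24.9 in tolerant roots and 76.6 and 78.4 in sensitive roots, also without overlap but not called, with -1.47 ± 0.52.

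LOC_Os04g01650 had 8.08 and 3.67 normalised counts in tolerant roots at 10 °C and 35.5 and 25 in sensitive roots (-2.34 ± 0.60, SE). Its call at 10 °C was lost without either tolerant library or without the first sensitive one. LOC_Os04g02510 had 62.6 and 44.0 in tolerant roots at 10 °C and 214 and 162 in sensitive roots (-1.81 ± 0.34), and LOC_Os04g02754 had 938 and 639 in tolerant roots and 1676 and 1757 in sensitive roots (-1.12 ± 0.31). LOC_Os04g03860 went the other way, with 123 and 111 in tolerant roots at 10 °C and 51.1 and 44.2 in sensitive roots (1.29 ± 0.38). At 28 °C these 4 members were not called, with log2 differences of -0.91 ± 0.38, -0.76 ± 0.30, -0.71 ± 0.31 and 1.09 ± 0.37 (SE) in that order. Each had the same sign as at 10 °C. An adjusted p under 0.05 at 10 °C and not at 28 °C is thus no sign of a difference between temperatures.

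On chromosome 10, 12 of the 74 members with an adjusted p were called at 10 °C, 9 higher and 3 lower in tolerant roots, which is 16.2% against the 2.90% of all genes. The balance was thus on the other side from chromosome 4, where 3 were higher and 11 lower. At 28 °C, again as a description, 11 of 99 members were called, 9 higher and 2 lower in tolerant roots. Called at both temperatures were 9 members, 7 higher and 2 lower in tolerant roots, with 3 called at 10 °C alone and 2 at 28 °C alone. No member of either stretch was called in opposite directions.

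**Figure D3:**
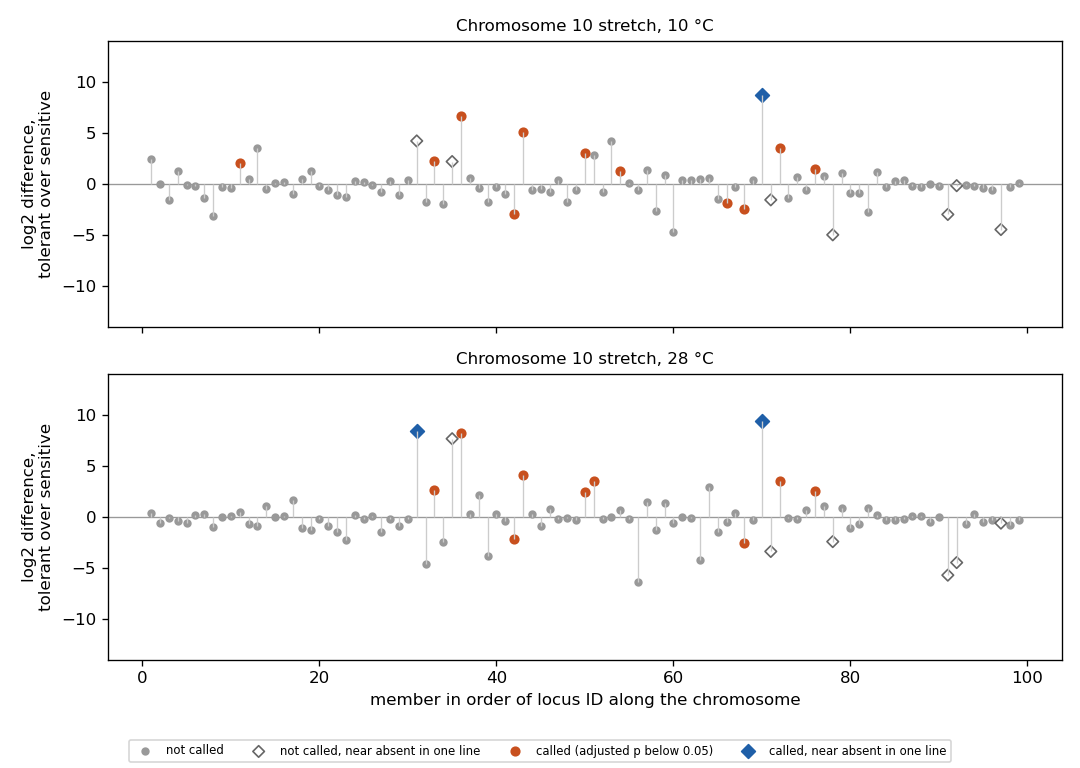
Log2 difference of tolerant over sensitive roots at 10 °C (upper panel) and 28 °C (lower panel) for the 99 chromosome 10 members in order of locus ID, with symbols as in the chromosome 4 plot. Called members are mostly above 0, the first of them, LOC_Os10g02380, stands alone near the start, and the last 23 members hold none.

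Before the first called member, LOC_Os10g02380, lay 10 uncalled members, and after the last, LOC_Os10g04342, lay 23. A gap of 19 uncalled members separated LOC_Os10g02380 from the next. Uncalled members again include those without an adjusted p at 10 °C, 25 in this stretch. In LOC_Os10g01000 to LOC_Os10g02200, before the stretch, 0 of 19 genes were called at 10 °C in the authors' deposited table, with 2 at an unadjusted p below 0.05, and 0 of 30 at 28 °C, with 0. In LOC_Os10g05020 to LOC_Os10g07820, after it, 2 of 60 genes were called at 10 °C, both higher in tolerant roots, and 0 of 77 at 28 °C, with 2 at an unadjusted p below 0.05. In the remainder of chromosome 10, flanks included, 2.78% of tested genes were called at 10 °C and 0.140% at 28 °C.

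LOC_Os10g04130 had 1865 reads over the 4 tolerant libraries and 3 over the 4 sensitive ones. At 10 °C it had 325 and 186 normalised counts in tolerant roots and 1.04 and 0 in sensitive roots, a ratio of 418 (75.1 to 16520) on a single read. At 28 °C it had 579 and 552 in tolerant roots and 0.806 and 0.911 in sensitive roots, a ratio of 661 (183 to 5457). LOC_Os10g03390 had 34.3 and 12.2 in tolerant roots at 10 °C and 0 and 0 in sensitive roots, at least 12.7-fold higher in tolerant roots, and at 28 °C it had 351 and 1150 in tolerant roots and 2.42 and 2.73 in sensitive roots. Its call at 10 °C (adjusted p = 0.00287 in the authors' deposited table) was lost when either sensitive library was left out.

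A pair of members were at or near 0 in sensitive roots without a call at 10 °C. LOC_Os10g02990 had 11.1 and 12.2 normalised counts in tolerant roots at 10 °C and 0 and 1.47 in sensitive roots (log2 difference 4.23 ± 1.59, SE; adjusted p = 0.145 in the authors' deposited table), and 53.5 and 55.6 in tolerant roots and 0 and 0 in sensitive roots at 28 °C. LOC_Os10g03360 had 2.02 and 0 in tolerant roots at 10 °C, 10.4 and 53.1 in tolerant roots at 28 °C, and 0 reads in all 4 sensitive libraries. It was called at neither temperature. At 28 °C its tolerant libraries differed 5-fold from each other.

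Other members higher in tolerant roots were read in both lines. LOC_Os10g03600 had 89.8 and 79.4 normalised counts in tolerant roots at 10 °C and 1.04 and 4.42 in sensitive roots (log2 difference 5.08 ± 0.88, SE), LOC_Os10g04180 had 249 and 103 in tolerant roots and 13.6 and 17.7 in sensitive roots (3.51 ± 0.55), and LOC_Os10g04342 had 916 and 489 in tolerant roots and 271 and 225 in sensitive roots (1.5 ± 0.37). At 28 °C the log2 differences of these 3 members were 4.06 ± 0.60, 3.47 ± 0.49 and 2.52 ± 0.37 in the same order. LOC_Os10g03230 had 81.8 and 48.9 in tolerant roots at 10 °C and 18.8 and 7.36 in sensitive roots, and LOC_Os10g03730 had 25.2 and 37.9 in tolerant roots and 3.13 and 4.42 in sensitive roots. Their calls, at adjusted p-values of 0.0206 and 0.00852 in the authors' deposited table, were each lost when some single libraries were left out (2 of 4 libraries for LOC_Os10g03230 and 3 of 4 for LOC_Os10g03730), and so was that of LOC_Os10g04342 (2 of 4). LOC_Os10g03740, next to LOC_Os10g03730, had 20.2 and 17.1 in tolerant roots at 10 °C and 1.04 and 4.42 in sensitive roots and was not called there (adjusted p = 0.0820 in the authors' deposited table), while it was called at 28 °C. The calls of LOC_Os10g03230, LOC_Os10g03730 and LOC_Os10g03740 at 28 °C were likewise lost with some single libraries left out, as was that of LOC_Os10g04110 without the second tolerant library.

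LOC_Os10g03780 had 256 and 177 normalised counts in tolerant roots at 10 °C and 110 and 69.2 in sensitive roots (log2 difference 1.27 ± 0.38, SE). LOC_Os10g02380 had 172 and 52.6 in tolerant roots at 10 °C and 14.6 and 38.3 in sensitive roots, and its adjusted p of 0.0479 in the authors' deposited table was the nearest to the threshold. It was lost without the first tolerant or the first sensitive library. Both were called at 10 °C alone, as was LOC_Os10g04060 among the members lower in tolerant roots.

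The lower members on chromosome 10 were 3, and all were read in both lines. LOC_Os10g03570 had 133 and 196 normalised counts in tolerant roots at 10 °C and 1246 and 1203 in sensitive roots, a log2 difference of -2.90 ± 0.28 (SE) and the smallest adjusted p of the members, 2.34e-21 in the authors' deposited table. At 28 °C it had 243 and 191 in tolerant roots and 1002 and 1004 in sensitive roots. LOC_Os10g04110 had 31.3 and 33.0 in tolerant roots at 10 °C and 179 and 162 in sensitive roots (-2.41 ± 0.55), and LOC_Os10g04060 had 55.5 and 52.6 in tolerant roots and 222 and 181 in sensitive roots (-1.90 ± 0.35). LOC_Os10g04060 stood closer at 28 °C, with 76.6 and 59.7 in tolerant roots and 102 and 90.2 in sensitive roots, still without overlap and not called.

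**Figure D4:**
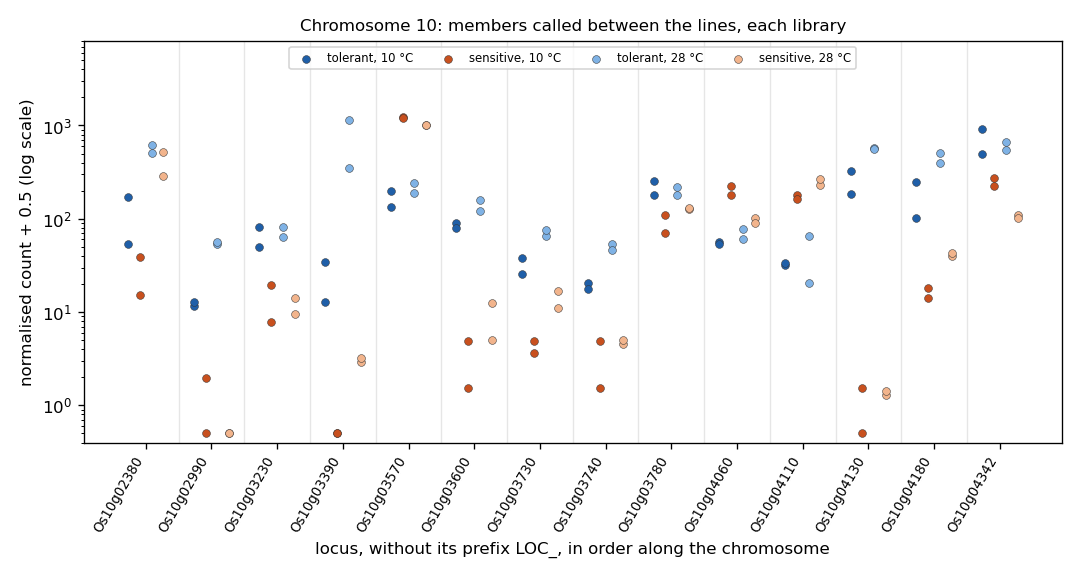
Normalised read count plus 0.5, on a log axis, in each of the 8 libraries for the 14 chromosome 10 members called between the lines. Each point is 1 library. LOC_Os10g04130 and LOC_Os10g02990 lie near the bottom in sensitive roots at both temperatures, while LOC_Os10g03570 is read in all libraries and is lower in tolerant roots.

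Counting every ID with 3 reads or fewer over one line's 4 libraries and at least 10 reads over the other's, 20 of the 349 IDs were near absent in one line; with that many reads in one line they also pass the mean of 1. On chromosome 4 they were 12, 3 near absent in sensitive roots and 9 in tolerant roots. On chromosome 10 they were 8, 3 near absent in sensitive roots and 5 in tolerant roots. Those 5, LOC_Os10g04170, LOC_Os10g04490, LOC_Os10g04720, LOC_Os10g04730 and LOC_Os10g04900, held 10 to 23 reads in sensitive roots and 0 to 3 in tolerant roots, had means under 3, no adjusted p at 10 °C and no call at 28 °C. The same was true of LOC_Os04g01354, LOC_Os04g03210 and LOC_Os04g03890, with 10 to 16 reads in sensitive roots against 0 to 3 in tolerant roots. LOC_Os04g01874 had 82 reads in tolerant roots, 79 of them at 28 °C, against 2 in sensitive roots, and was not called either. How many IDs outside the stretches were near absent in one line was not counted. As another measure, the log2 difference at 10 °C was at least 5 in size for 11.4% of tested members on chromosome 4. It was so for 4.05% on chromosome 10, against 0.542% of all genes tested.

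IDs read in no library were a larger share of both stretches than of all IDs, and a larger share still of the flanks. The mean was 0 for 33 of 160 IDs on chromosome 4 (20.6%) and for 41 of 189 on chromosome 10 (21.7%), against 15.1% of all IDs. It was below 1 for 41.2% and 47.6%, against 35.2% of all. In the flank after the chromosome 4 stretch, 31.8% of IDs had a mean of 0, and in the flanks before and after the chromosome 10 stretch 26.9% and 25.5% did. The median mean of the members was 79.4 normalised counts on chromosome 4 and 35.1 on chromosome 10, against 145 over all IDs with a mean of at least 1.

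Most members of fair abundance were not called between the lines. With a mean of at least 20, 50 of 63 members on chromosome 4 and 50 of 62 on chromosome 10 were called at neither temperature. For 16 and 11 of these (32% and 22%), the 95% interval of the difference lay within 2-fold at both temperatures, against 43.0% of such genes outside the stretches; for the remainder a 2-fold difference was within the error of the 2 libraries a group. The median size of their log2 difference at 10 °C was 0.35 on chromosome 4 and 0.38 on chromosome 10, against 0.29 outside.

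The most abundant members were among those not called. On chromosome 4 they were LOC_Os04g02820, LOC_Os04g01300 and LOC_Os04g01290, with means of 5903, 4964 and 2679 normalised counts and log2 differences at 10 °C of -0.24 ± 0.25, 0.05 ± 0.22 and 0.15 ± 0.27 (SE). On chromosome 10 they were LOC_Os10g03550, LOC_Os10g02630 and LOC_Os10g03830, with means of 6931, 4978 and 1430 and log2 differences of -0.97 ± 0.40, -0.15 ± 0.23 and 0.09 ± 0.17 (SE). For LOC_Os04g02820, LOC_Os04g01290, LOC_Os10g02630 and LOC_Os10g03550, counts per library could not be recovered.

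The response to 10 °C within each line was not the comparison behind the choice of members, but it shares the 28 °C libraries with that comparison. Its values are thus not independent of the choice. In tolerant roots, 27 of 90 tested members on chromosome 4 changed, 10 up and 17 down (30.0%), and 28 of 96 on chromosome 10, 7 up and 21 down (29.2%), where 40.0% of all genes were called (20.3% up and 19.7% down). In sensitive roots, 27 of 90 changed on chromosome 4, 14 up and 13 down (30.0%), and 29 of 96 on chromosome 10, 11 up and 18 down (30.2%), where 44.5% of all genes were called (22.8% up and 21.8% down). The share of responding members was thus below that of all genes in both stretches and lines, beside median means that were also lower. On chromosome 10 more members fell than rose, with a median log2 change of -0.58 in tolerant and -0.52 in sensitive roots, against -0.08 and -0.03 over all genes. The flank after this stretch showed the same, with 9 up and 20 down in tolerant roots (median -0.47) and 11 up and 18 down in sensitive roots (median -0.48).

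Markers of the organ moved with temperature too. The 3 root transporter genes used as markers, for the silicon channel Lsi1, the silicon efflux transporter Lsi2 and the manganese transporter Nramp5, were read in every group, with summed normalised counts at 10 °C of 4135 for the tolerant line and 6874 for the sensitive line, against 48860 and 30680 at 28 °C. The 5 shoot genes, for Rubisco subunits, chlorophyll-binding proteins and Rubisco activase, were also above the floor in all groups, with summed normalised counts at 10 °C of 1725 for the tolerant line and 4680 for the sensitive line, against 2836 and 2636 at 28 °C. In the 4 shoot genes with counts per library, the second library of sensitive roots at 10 °C stood highest, at 2452 against 645 to 2069 in the other 7 libraries. Of the 5 shoot genes, LOC_Os01g41710 and LOC_Os09g17740 were called between the lines at 10 °C, both lower in tolerant roots, with log2 differences of -2.12 ± 0.46 and -1.62 ± 0.42 (SE). The part of these markers in the results on the members was not tested.

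On chromosome 4, 17 of 90 members changed in both lines, 8 up and 9 down (18.9%), and 0 in opposite directions. Over all genes tested in both lines, 31.9% changed in both, 16.5% up and 15.4% down, and 0.0382% in opposite directions, so the members' share was the lower and a shared direction was the rule among all genes. LOC_Os04g01950 had 54.5 and 323 normalised counts in tolerant roots at 10 °C against 2.39 and 2.49 at 28 °C (log2 change 6.27 ± 1.00, SE), and 573 and 1038 in sensitive roots at 10 °C against 10.5 and 1.82 at 28 °C (7.01 ± 0.89). LOC_Os04g03100 had 155 and 188 in tolerant roots at 10 °C against 9.58 and 9.95 at 28 °C, and 88.6 and 184 in sensitive roots at 10 °C against 10.5 and 16.4 at 28 °C. LOC_Os04g01720 also rose in both lines, but its libraries at 10 °C were far apart, 26.2 and 117 in tolerant roots and 18.8 and 228 in sensitive roots, against 0 to 3.32 at 28 °C, and its call in tolerant roots was lost without the second library at 10 °C.

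Among members that fell in both lines, LOC_Os04g01510 had 143 and 57.4 normalised counts in tolerant roots at 10 °C against 1102 and 936 at 28 °C, and 131 and 83.9 in sensitive roots at 10 °C against 870 and 779 at 28 °C. LOC_Os04g01674 had 2.02 and 11 in tolerant roots at 10 °C against 109 and 102 at 28 °C, and 20.9 and 20.6 in sensitive roots at 10 °C against 172 and 141 at 28 °C. LOC_Os04g01650, called between the lines at 10 °C, fell by 4.08 ± 0.57 on the log2 scale in tolerant roots and by 2.64 ± 0.42 in sensitive roots (SE). The difference of its responses, -1.44 ± 0.71, did not pass the test (derived Wald test, adjusted p = 0.593).

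**Figure D5:**
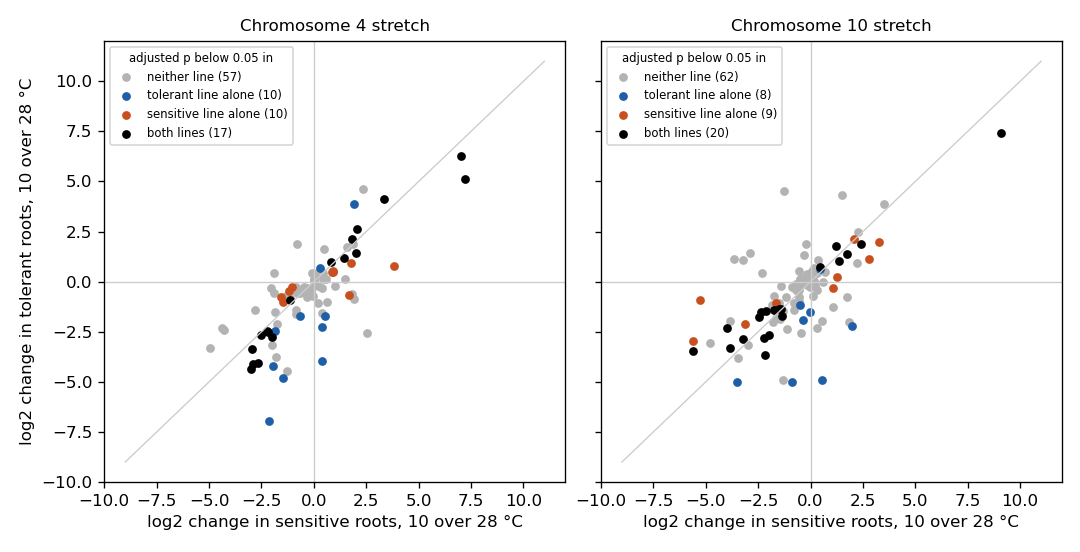
Log2 change at 10 over 28 °C in tolerant roots (y axis) against sensitive roots (x axis) for the chromosome 4 members (left) and chromosome 10 members (right), coloured by the line in which the authors' adjusted p was below 0.05. The diagonal marks equal change. Black points, called in both lines, are 17 and 20, and each has the same sign in both lines.

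On chromosome 10, 20 of 96 members changed in both lines, 6 up and 14 down (20.8%, against 31.9% of all genes), and 0 in opposite directions. LOC_Os10g02930 had 2397 and 2099 normalised counts in tolerant roots at 10 °C against 664 and 626 at 28 °C, and 1854 and 1796 in sensitive roots at 10 °C against 733 and 814 at 28 °C. LOC_Os10g03550, the most abundant member, had estimated levels of 7722 in tolerant roots at 10 °C against 2100 at 28 °C, and of 15085 in sensitive roots at 10 °C against 2815 at 28 °C (log2 changes 1.88 ± 0.40 and 2.42 ± 0.40, SE). LOC_Os10g03830, the third in abundance, rose by less, by 0.75 ± 0.17 in tolerant and by 0.47 ± 0.17 in sensitive roots on the log2 scale (SE), the second of which was not called without the second library at 10 °C or the first at 28 °C. LOC_Os10g03710 had 0 reads in all 4 libraries at 28 °C, while at 10 °C it had 14.1 and 37.9 in tolerant roots and 4.17 and 166 in sensitive roots. Its calls, at adjusted p-values of 0.0446 and 0.0107 in the authors' deposited table, were lost in tolerant roots when any one of the libraries was left out, and in sensitive roots without the second library at 10 °C or the first at 28 °C.

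With a mean of at least 20, the 3 chromosome 10 members that fell most in sensitive roots, LOC_Os10g02210, LOC_Os10g02380 and LOC_Os10g02260, all lay near its first end. LOC_Os10g02210 had 7.07 and 6.11 normalised counts in tolerant roots at 10 °C against 79.0 and 68.8 at 28 °C, and 2.09 and 0 in sensitive roots at 10 °C against 76.6 and 41.0 at 28 °C. LOC_Os10g02260 had 97.9 and 31.8 in tolerant roots at 10 °C against 715 and 588 at 28 °C, and 81.3 and 56.0 in sensitive roots at 10 °C against 914 and 1052 at 28 °C. LOC_Os10g02240 fell by 3.64 ± 0.55 in tolerant and by 2.18 ± 0.48 in sensitive roots on the log2 scale (SE). LOC_Os10g02380, higher in tolerant roots at 10 °C, fell in both lines, with 624 and 511 in tolerant and 524 and 288 in sensitive roots at 28 °C, and its fall in tolerant roots was not called without their second library at 10 °C.

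Further members were called in one line alone, 10 in tolerant and 10 in sensitive roots on chromosome 4 and 8 and 9 on chromosome 10. Over all genes, 40.0% were called in tolerant roots, 44.5% in sensitive roots and 31.9% in both. Calls in one line alone were thus common among all genes too. Some of the members called in one line alone are members that the other line hardly held. The log2 change in tolerant roots was -1.71 ± 0.41 for LOC_Os04g02490, -5.00 ± 0.72 for LOC_Os10g03390, -1.14 ± 0.41 for LOC_Os10g04130, -2.23 ± 0.81 for LOC_Os10g02990 and -4.92 ± 2.05 for LOC_Os10g03360 (SE). In sensitive roots LOC_Os10g03390 had 0 and 0 normalised counts at 10 °C against 2.42 and 2.73 at 28 °C, and its log2 change of -3.50 ± 1.70 (SE) was not called (adjusted p = 0.0817 in the authors' deposited table). The sensitive libraries at 28 °C held less than 1 normalised count each for the other 4, so a fall there was not detectable at this depth. LOC_Os10g02300, read in both lines, had 101 and 183 in sensitive roots at 10 °C against 21.0 and 20.1 at 28 °C and was called, and 58.5 and 50.1 in tolerant roots at 10 °C against 15.2 and 34 at 28 °C and was not (adjusted p = 0.0951 in the authors' deposited table).

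The calls of LOC_Os04g03870, LOC_Os04g03850 and LOC_Os10g03360 in tolerant roots rested on single libraries. LOC_Os04g03870 had 5.05 and 1.22 normalised counts in tolerant roots at 10 °C against 21.6 and 78.8 at 28 °C, and 43.8 and 2.95 in sensitive roots at 10 °C against 17.7 and 18.2 at 28 °C. It was no longer called without the second tolerant library of either temperature, and the same held for LOC_Os10g03360. LOC_Os04g03850 lost its fall without the second tolerant library at 10 °C. The fall of LOC_Os10g02990 was lost without either tolerant library at 10 °C or the second at 28 °C, that of LOC_Os10g04130 without the second at 10 °C or the first at 28 °C, while that of LOC_Os10g03390 was called in each case.

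Tested directly, the response to 10 °C was called different between the lines for 1 member of 186. The test set the difference of the 2 deposited log2 changes against their standard errors over all 26199 genes (derived Wald test, Benjamini-Hochberg adjustment), and 0.622% of all genes passed (0.214% with the higher and 0.408% with the lower change in tolerant roots). That member was LOC_Os04g01890, whose log2 change was -0.64 ± 0.33 in tolerant roots and 1.68 ± 0.31 in sensitive roots (SE), a difference of -2.32 ± 0.46 with an adjusted p of 0.000558 in the derived Wald test. Only the sensitive change was called (adjusted p = 6.68e-07 in the authors' deposited table), and the call of the difference held with each library left out. The shoot marker LOC_Os01g41710 passed the same test in the same direction (-2.75 ± 0.64, adjusted p = 0.00942 in the derived Wald test), and its part in the result on LOC_Os04g01890 was not tested. On chromosome 10 the derived test called 0 of 96 members, with 6 at an unadjusted p below 0.05, and on chromosome 4 there were 7 at that level. Among other members called at one temperature alone, the difference in response was -2.63 ± 0.84 for LOC_Os04g03850 (SE; unadjusted p = 0.00169, adjusted p = 0.137 in the derived Wald test). It was -1.41 ± 0.49 for LOC_Os10g04060 (unadjusted p = 0.00408, adjusted p = 0.217 in the derived Wald test). Neither passed over all genes.

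Some members called between the lines also changed with cold. LOC_Os10g04180 was higher in tolerant roots at both temperatures and fell in both lines, by 1.37 ± 0.47 in tolerant and 1.41 ± 0.57 in sensitive roots on the log2 scale (SE). Its fall in tolerant roots was not called without the second library at 10 °C or the first at 28 °C, and its fall in sensitive roots without any one of the 4. LOC_Os10g04342 rose by 1.25 ± 0.38 in sensitive roots, while its change in tolerant roots was 0.23 ± 0.36. LOC_Os04g02754 rose by 0.88 ± 0.31 in sensitive roots, and its change in tolerant roots, 0.47 ± 0.31, was not called. LOC_Os04g02510 fell by 1.73 ± 0.33 in tolerant roots, and its change in sensitive roots, -0.68 ± 0.31, was not called. The difference in response was called for neither of them (adjusted p = 0.951 and 0.449 in the derived Wald test), nor for LOC_Os10g04342.

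The limits of the stretches follow from the rule. At the first end of chromosome 4, the members LOC_Os04g01240 and LOC_Os04g01250 had log2 differences between the lines at 10 °C of 0.04 ± 0.25 and -0.02 ± 0.26 (SE), and LOC_Os04g01230, just outside, had 0.02 ± 0.24. At the last end, the member LOC_Os04g03920 had -1.12 ± 0.98, and LOC_Os04g03930 and LOC_Os04g03950 outside had means under 0.3. On chromosome 10, the first members LOC_Os10g02210 and LOC_Os10g02220 had 2.46 ± 1.25 and 0.05 ± 0.70, the last members LOC_Os10g05000 and LOC_Os10g05010 had -0.25 ± 0.79 and 0.09 ± 1.11, and LOC_Os10g05020 outside had -0.90 ± 0.68. The members nearest the mean of 1 were LOC_Os04g02690 (1.12), LOC_Os04g01760 (1.24), LOC_Os10g03450 (1.09) and LOC_Os10g02276 (1.35), and the IDs just under it were LOC_Os04g03740 (0.787), LOC_Os04g01560 (0.754), LOC_Os10g04429 (0.874) and LOC_Os10g04140 (0.848).

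Libraries of a group agreed less at 10 °C than at 28 °C. Over members with at least 50 reads in a group, the median ratio of the higher to the lower library was 1.33 in tolerant roots at 10 °C, 1.39 in sensitive roots at 10 °C, 1.22 in tolerant roots at 28 °C and 1.12 in sensitive roots at 28 °C. The widest gaps were in sensitive roots at 10 °C, where the second library was 39.9 times the first for LOC_Os10g03710 and 12.2 times for LOC_Os04g01720. Without that second library, 7 chromosome 10 members were called between the lines at 10 °C in place of 12, and 18 changed with cold in sensitive roots in place of 29. Without the second library of tolerant roots at 10 °C, 12 changed in tolerant roots in place of 28.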

How the data were processed

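The authors deposited 4 comparison tables, which per the file headers are DESeq2 results with a mean, log2 fold change, standard error, Wald score, p-value and adjusted p-value per gene. The mean signal is the authors' average of normalised counts over the 8 libraries, identical in the 4 tables. The log2 fold changes and Wald scores were used as deposited by the authors, and a positive value means higher in tolerant than in sensitive roots, or at 10 than at 28 °C. The authors' deposited p-value and its adjusted form were used unchanged. Libraries were poly-A RNA read as 50 bp single ends, per the labels' protocols. Bowtie 0.12.7 is named in the submitters' processing notes and STAR in the tables' names; genome build, annotation and read counter are not stated.

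Size factors were recovered from genes with 1 read in 1 library (335 to 455 genes a library). Whole read counts per library were then solved from the deposited mean, fold changes and standard errors, and accepted where a negative binomial fit gave back every deposited fold change and standard error to within 1e-09. This held for 271 of 275 stretch IDs with a mean above 0, with a largest misfit of 1.05e-13. The other 4, all with means of at least 2679, have group levels only. The counts were used to show values and to leave out each library in turn, with the authors' dispersions and size factors held and a call at the largest p called in the deposited table; leaving out 1 library leaves a group with 1, taken to vary like the others. Library totals were not used here. The difference in cold response was tested with a derived Wald test (SciPy 1.17.1, pandas 2.3.3), adjusted by Benjamini-Hochberg over 26199 genes. The methods were tested on simulated data.

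Ratios on 1 to 3 reads have exact 95% counting intervals, and 0 reads a floor of 3. Members and lists were chosen with earlier results of these data known. Named are all members called between the lines, those with 0 reads in one line, the 3 largest cold changes in each line and direction with a mean of at least 20, those past the derived test, the 3 highest means and the IDs at each limit; other members named were chosen after their values were seen. Alternatives were a stricter threshold, a 2-fold minimum, other filters on the mean and rescaled Wald statistics.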

Additional observations from a re-analysis of the deposited data

Results flagged for a closer look

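LOC_Os04g01890 was the 1 member whose response to 10 °C differed between the lines, with a log2 change in tolerant roots minus that in sensitive roots of -2.32 ± 0.46 (SE; derived Wald test, adjusted p = 0.000558). Its level was 77.7 and 72.1 normalised counts in tolerant roots at 10 °C, beside 494 and 364 in sensitive roots, and 130 and 104 in tolerant roots and 126 and 142 in sensitive roots at 28 °C. It lies between LOC_Os04g01650 and LOC_Os04g02070, the nearest members called between the lines, with 8 and 11 uncalled members between.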

How the results depend on the processing

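No paired analysis was possible because the recovered libraries could not be tied to the replicate numbers of the labels. Leaving out a library reversed no direction among the calls of named members. The other alternatives keep the deposited fold changes and so could not reverse one. Dividing the Wald statistics by their robust spread over all genes, which is wide where 40.0% or more of genes respond, left 0 cold calls on chromosome 4 in either line (27 each as deposited), and 1 in tolerant and 0 in sensitive roots on chromosome 10 (28 and 29). Between the lines it gave 6 calls on chromosome 10 at 10 °C (12) and, at 28 °C, 19 on chromosome 4 (8) and 21 on chromosome 10 (11). Testing only genes above the median mean gave 7 calls on chromosome 10 at 28 °C and 19 in its cold response in sensitive roots. An adjusted p below 0.01 gave 14 in its cold response in tolerant roots. With 1 library left out, line calls at 10 °C were 11 to 13 on chromosome 4 and 7 to 11 on chromosome 10, and at 28 °C 7 to 8 and 9 to 10. Cold calls in tolerant roots were 21 to 24 and 12 to 25, and in sensitive roots 23 to 25 and 18 to 26. The derived test gave 1 on chromosome 4 and 0 on chromosome 10 throughout. Among calls of named members, 53 of 336 were lost when 1 library was left out.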
